A study of Mus musculus with 6 samples.

Results

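The genes described here are those of the interferon response and of MHC class I antigen presentation that the deposited transcript table lists for C17.2, a mouse neural stem cell line. They were taken by gene name: names that begin with Ifi, Ifn, Isg, Gbp, Oas, H2- or Trim2, or with Irf, Stat or Tap and a digit, together with B2m and Bst2. The rule found 36 named transcripts of 29 genes at 28 loci, out of 15113 transcripts and 7171 loci in the table. In the mouse annotation GENCODE M21, 166 gene names meet the same rule, so most of the family, including the Gbp and Oas genes, was not analysed here. Because the rule works on names, 7 of the loci are members by name and not by a role in interferon signalling or antigen presentation, and they are described last.

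RNA was sequenced from 3 groups of cultures of this line, which has a mixed CD1 x C57BL/6 background, with 2 biological replicates labelled in each. Heme cells were treated with heme, and the sources used here give no dose, duration or medium for them. NIM cells were kept in neural induction medium, made of Knockout DMEM, GlutaMAX, N2 supplement and the neurotrophin BDNF at 10 ng/ml. Control cells were kept in the growth medium, DMEM/F12 with 10% fetal bovine serum and an antibiotic and antimycotic mix. All cultures come from 1 line, so p-values measure the spread among cultures of that line.

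Values are FPKM, fragments scaled by transcript length and library size, added up over all transcripts listed at a locus. The libraries held 4.14 to 4.56 gigabases of mapped sequence, as coverage divided by FPKM gives it, and the FPKM sums were 398224 to 411657. The second heme column was 1.25 to 1.5 times the first in each of 13963 transcripts and had no transcript at 0 that the first did not, so both columns were counted as 1 sample and heme has n = 1. Control replicate 2 had 222 FPKM of Hmox1, the heme-degrading enzyme, against 43.7 to 79.4 FPKM in the other 4 libraries, and 15.7 FPKM of the proliferation gene Mki67, against 28.2 to 33.8 FPKM. Of the markers looked up, 0 of 12 immune, 0 of 5 endothelial and 0 of 7 erythroid genes were listed in the table. The table holds only part of the transcripts, so an unlisted gene was not measured here. The neural progenitor genes Nes, Sox2, Vim and Msi2 were listed, and their summed level was 945 FPKM in heme cells, 935 to 939 FPKM in NIM cells and 821 to 964 FPKM in control cells.

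As background, type I interferons bind the receptor pair Ifnar1 and Ifnar2, and interferon gamma binds Ifngr1 and Ifngr2. Janus kinases on these receptors phosphorylate STAT proteins, which enter the nucleus with interferon regulatory factors and switch on antiviral genes. MHC class I molecules consist of a heavy chain, B2m and a peptide that TAP pumps into the endoplasmic reticulum, and they show that peptide to CD8+ T cells. Neural cells generally carry little class I, and interferons raise it.

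None of the 28 member loci passed the test in any comparison. In limma with Benjamini-Hochberg adjustment over 7039 loci, 0 members were called in heme against control, where 0.0426% of all loci were called, and 0 in NIM against control, where 0.0142% were. Direct comparison of heme with NIM also called 0 members, against 0.0568% of all loci. At an unadjusted p below 0.05 the count of members was again 0 in each comparison, against 3.59%, 3.05% and 3.38% of all loci. The smallest adjusted p of a member in limma was 0.998 in heme against control, 0.934 in NIM against control and 1 in heme against NIM. The median standard error of a member was 0.19 on the log2 scale in heme against control and 0.15 in NIM against control. With 2 residual degrees of freedom, to which limma adds 2.48 prior ones, a difference has to exceed its standard error several times to pass. Smaller differences could not be resolved, including many above 1 standard error.

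**Figure D1:**
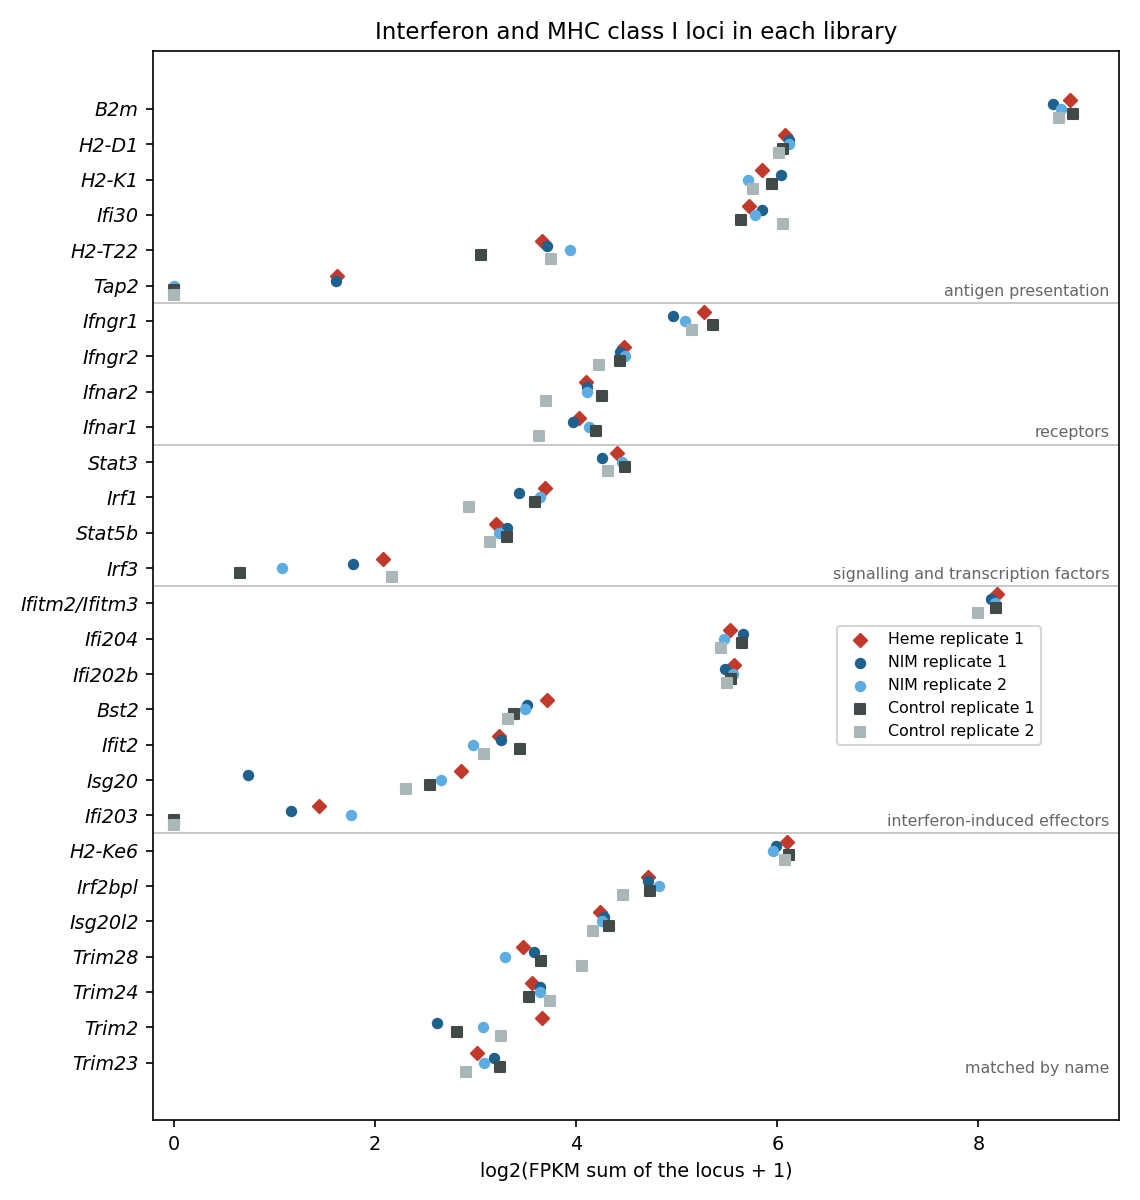
Level of each member locus in the 5 libraries, as log2 of its FPKM sum plus 1, with loci grouped by role and ordered by mean level. Red diamonds are heme, blue circles NIM and grey squares control, 1 point per library. B2m and the Ifitm2/Ifitm3 locus lie to the right of the other members, and the light grey squares of control replicate 2 are the lowest point at 3 of the 4 receptors.

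The most abundant member belongs to antigen presentation. B2m, the light chain shared by class I molecules, had 481 FPKM in heme cells, 426 and 450.1 FPKM in NIM cells, and 489 and 445 FPKM in control cells. Its level lay at percentile 98.2 of all loci, at chr2:122147686-122153083 on GRCm38. The heme value fell between the control values and above both NIM values, and the NIM and control ranges overlapped. The log2 fold change of B2m was 0.04 ± 0.10 (SE) in heme against control and -0.09 ± 0.08 in NIM against control.

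The classical heavy chains were lower than B2m. H2-D1, at chr17:35262730-35267499, had 66.7 FPKM in heme cells, 68.4 and 68.4 FPKM in NIM cells, and 65.8 and 64.0 FPKM in control cells. The control libraries were the lowest 2 of the 5, with log2 fold changes of 0.04 ± 0.09 (SE) for heme and 0.08 ± 0.07 for NIM. H2-K1 had 56.6 FPKM in heme cells, 64.6 and 51.2 FPKM in NIM cells, and 60.7 and 53.0 FPKM in control cells, so the groups overlapped. H2-T22 is a non-classical class I molecule that gamma delta T cells recognise. Its locus had 11.7 FPKM in heme cells, 12.1 and 14.3 FPKM in NIM cells, and 7.32 and 12.4 FPKM in control cells. In this sum control replicate 1 was the low library and control replicate 2 lay among the treated ones. The coding transcript ENSMUST00000080015 had 4.33 FPKM in heme cells, 3.90 and 2.87 FPKM in NIM cells, and 7.32 and 4.15 FPKM in control cells. For that transcript control replicate 1 was the high library, and both NIM libraries lay below both controls. The other listed transcript, annotated for nonsense-mediated decay, is described below.

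Other members act on antigens before they are shown. Ifi30 encodes a lysosomal thiol reductase that unfolds proteins for presentation. It had 51.7 FPKM in heme cells, 56.7 and 54.1 FPKM in NIM cells, and 48.9 and 65.8 FPKM in control cells, with the control libraries at both ends of the range. Its listed transcript is annotated as a processed transcript without a coding sequence. Tap2, a subunit of the peptide transporter, had 2.09 FPKM in heme cells and 2.07 and 0 FPKM in NIM cells, and was listed at 0 in both control libraries. That Tap2 transcript is annotated as a retained intron, so it is no measure of the coding message, and no fold is given.

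Promoter sequence is shown because the abundant class I genes differed in which of the searched motifs their windows matched. Only exact matches were searched, so variant forms of an element are not marked. The windows are those of RefSeq on GRCm38.p6, from 250 bases before to 50 bases after each start, and 27 of the 29 genes matched one or more. The following stretches run 5′ to 3′ on the gene's strand. Capitals mark GAAANNGAA, the core of the interferon-stimulated response element, TTCNNNGAA, the core of the gamma-activated site bound by STAT dimers, or GGGATTCCC, a kappa-B element known from class I promoters, each searched on both strands. In Bst2 the capitals run over a TTCNNNGAA match that overlaps the first of 2 GAAANNGAA matches, which themselves overlap.
B2m, chr2:122147437-122147686, plus strand: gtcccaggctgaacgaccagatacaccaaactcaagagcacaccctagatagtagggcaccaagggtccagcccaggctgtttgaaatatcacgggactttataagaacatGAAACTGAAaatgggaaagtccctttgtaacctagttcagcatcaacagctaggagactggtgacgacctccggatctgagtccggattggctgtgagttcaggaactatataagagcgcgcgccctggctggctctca
Bst2, chr8:71537473-71537722, minus strand: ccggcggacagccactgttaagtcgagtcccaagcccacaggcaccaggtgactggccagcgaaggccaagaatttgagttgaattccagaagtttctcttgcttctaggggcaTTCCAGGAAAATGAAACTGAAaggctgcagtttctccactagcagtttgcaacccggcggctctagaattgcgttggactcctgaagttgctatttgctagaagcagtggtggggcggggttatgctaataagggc
H2-T22, chr17:36042913-36042942, minus strand: ttggcttagtTTCACTTTCgaatccccaac
H2-K1, chr17:34000438-34000467, minus strand: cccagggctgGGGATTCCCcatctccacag
H2-D1, chr17:35262914-35262943, plus strand: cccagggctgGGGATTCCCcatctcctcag
The H2-K1 and H2-D1 stretches are identical at 29 of 30 bases. The H2-D1 stretch lies upstream of the RefSeq start but inside the span of the transcript that the table lists.

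GAAANNGAA was found in 7 of the 27 matched members (25.9%), namely B2m, Bst2, H2-T22, Ifi203, Ifitm2, Ifitm3 and Trim2. Across all 27025 genes with a window, 9.76% held it, and 8.56% of all 32851 windows did. TTCNNNGAA was found in 8 members (29.6%), namely Bst2, Ifi202b, Ifit2, Ifitm3, Ifnar1, Ifnar2, Irf1 and Isg20, against 9.55% of genes and 8.3% of windows. GGGATTCCC was found in H2-D1, H2-K1 and Irf1, 11.1% of the matched members, against 0.414% of genes and 0.353% of windows. A longer form, which begins with a further G, was searched first and lies in H2-D1 and H2-K1 but not in Irf1. The 27 members have 39 windows between them, and a gene counts once whichever window holds the match. These matches describe the letters in the windows, and binding was not measured.

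The 4 receptor chains were all listed, at levels that put the interferon gamma pair above the type I pair. Ifngr1, the ligand-binding chain for interferon gamma, had 37.6 FPKM in heme cells, 30.3 and 32.9 FPKM in NIM cells, and 40.1 and 34.6 FPKM in control cells. Both NIM libraries lay below the other 3, with a log2 fold change of -0.23 ± 0.11 (SE) in NIM against control (limma, adjusted p = 0.934). That difference came from an unnamed transcript of the locus with 6.43 FPKM in heme cells, 0.570 and 1.39 FPKM in NIM cells, and 9.00 and 6.82 FPKM in control cells. The transcript named Ifngr1 alone had 31.2 FPKM in heme cells, 29.7 and 31.5 FPKM in NIM cells, and 31.1 and 27.7 FPKM in control cells, with a NIM estimate of 0.06.

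Ifngr2, the signalling chain of the same receptor, had 21.3 FPKM in heme cells, 20.7 and 21.5 FPKM in NIM cells, and 20.7 and 17.7 FPKM in control cells. Control replicate 2 was the low library, and the other 4 lay between 20.7 and 21.5 FPKM. Ifnar1, a chain of the type I receptor, had 15.4 FPKM in heme cells, 14.7 and 16.5 FPKM in NIM cells, and 17.3 and 11.4 FPKM in control cells. The control libraries were the highest and the lowest of the 5. Ifnar2, its partner, shares its locus in the table with Il10rb, an interleukin-10 receptor chain that carried 60.6% to 70.3% of the sum. The transcript named Ifnar2 had 4.80 FPKM in heme cells, 6.18 and 6.38 FPKM in NIM cells, and 7.13 and 4.46 FPKM in control cells, again with the control libraries at both ends.

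The receptors as a group had 4 positive and 0 negative estimates in heme against control, with a median log2 fold change of 0.12. The Ifnar2 estimate in that count, 0.12, is for the sum with Il10rb, and the transcript named Ifnar2 alone had -0.20. Without control replicate 2 the same group had 1 positive and 3 negative estimates and a median of -0.12. In NIM against control the counts were 3 positive and 1 negative with a median of 0.13, and without that library 1 positive and 3 negative with a median of -0.15. The direction of the receptors thus changed with control replicate 2, which had the lowest sum at 3 of the 4.

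**Figure D2:**
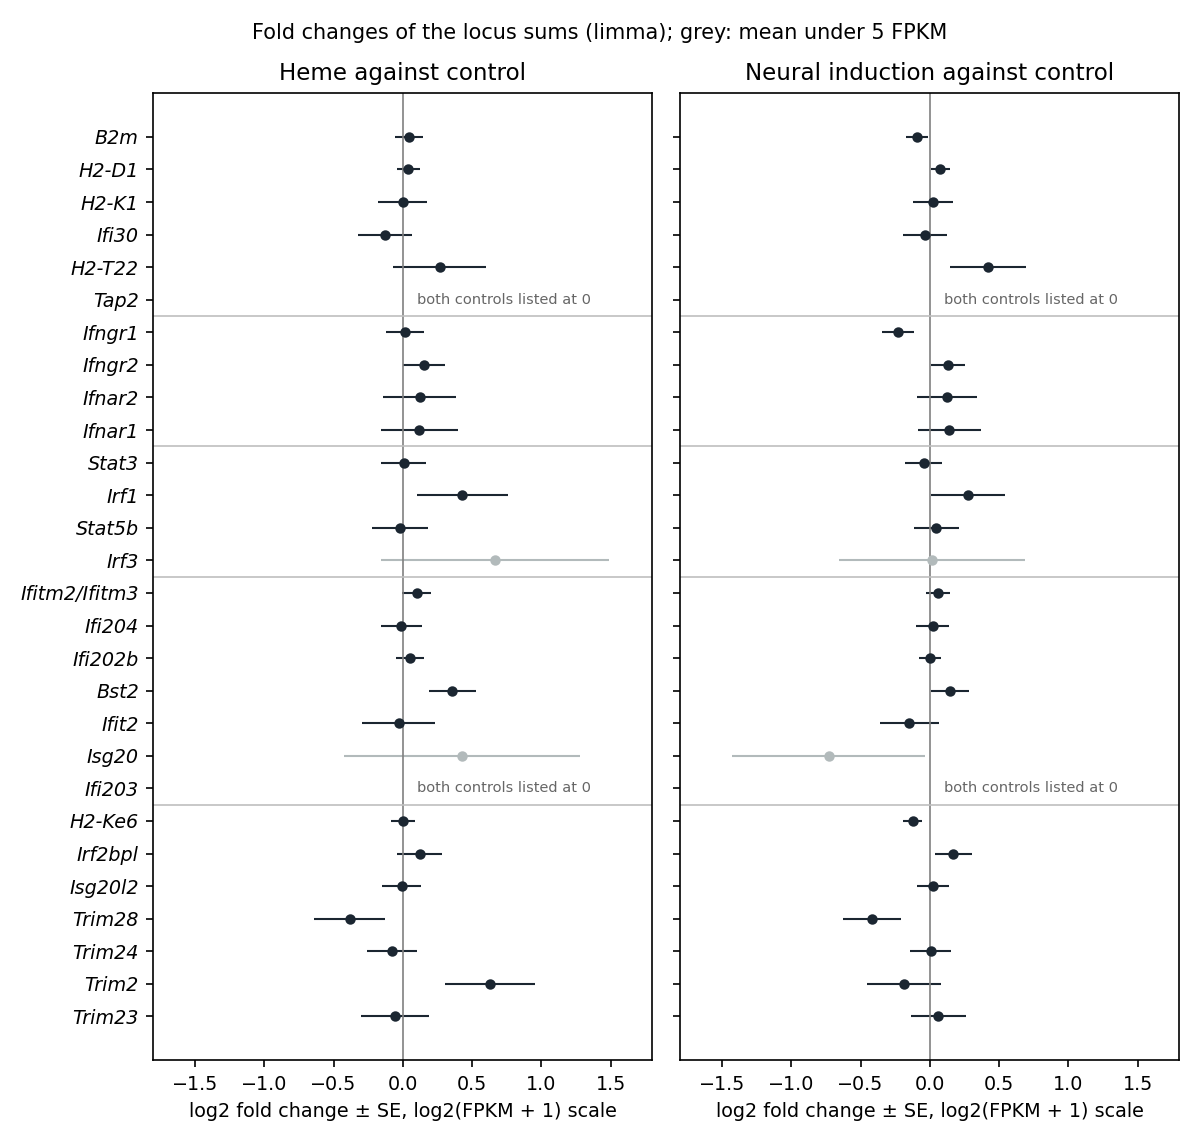
Log2 fold change of each member locus in heme against control (left) and NIM against control (right), with bars of 1 standard error from limma. Grey points have a mean under 5 FPKM, and Tap2 and Ifi203, which both control libraries list at 0, have no point. The black points of heme against control lie between -0.38 for Trim28 and 0.63 for Trim2, and no point passed the test.

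Among the signalling proteins and transcription factors, the STAT genes ranged over at most 0.23 on the log2 scale. Stat3, which carries cytokine signals of the interleukin-6 family and also of interferons, had 20.3 FPKM in heme cells, 18.2 and 20.9 FPKM in NIM cells, and 21.5 and 18.9 FPKM in control cells. Stat5b, a growth hormone and cytokine effector, had 8.25 FPKM in heme cells, 8.96 and 8.45 FPKM in NIM cells, and 8.95 and 7.85 FPKM in control cells. For both genes the ranges of NIM and control overlapped and the heme value lay inside the control range. Irf1, an interferon-induced activator of class I genes, had 11.9 FPKM in heme cells, 9.77 and 11.5 FPKM in NIM cells, and 11.0 and 6.64 FPKM in control cells. Control replicate 2 was the low library.

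The Irf1 estimates were 0.43 ± 0.33 (SE) for heme and 0.28 ± 0.27 for NIM, and without control replicate 2 they became 0.10 and -0.05. In that library the division of the locus between transcripts was also different: transcript ENSMUST00000019043 had 1.49 FPKM there, against 7.08 to 9.09 FPKM in the other 4 libraries. Irf3, the kinase-activated factor that first switches on interferon beta, ranged over 0.576 to 3.51 FPKM, with the lowest and the highest value both in control libraries. Its listed transcript is annotated as a retained intron.

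The interferon-induced effectors were led by a locus that joins Ifitm2 and Ifitm3, membrane proteins that restrict the entry of enveloped viruses. The locus had 290.0 FPKM in heme cells, 278 and 286 FPKM in NIM cells, and 288 and 255 FPKM in control cells. Ifitm2 alone had 187 FPKM in heme cells, 183 and 191 FPKM in NIM cells, and 197 and 174 FPKM in control cells. Ifitm3 alone had 82.9 FPKM in heme cells, 94.7 and 95.6 FPKM in NIM cells, and 90.8 and 80.6 FPKM in control cells. Heme thus exceeded both controls in the locus sum only with an unnamed spanning transcript of 20.5 FPKM, which was at most 0.000691 FPKM in the other libraries. Ifitm2 and Ifitm3 are close paralogs, and reads that match both cannot be assigned with certainty.

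Bst2, or tetherin, holds budding virus particles at the cell surface, and its promoter stretch above carries both interferon motifs. It had 12.1 FPKM in heme cells, 10.4 and 10.2 FPKM in NIM cells, and 9.45 and 9.01 FPKM in control cells. The 3 groups did not overlap, with heme highest and control lowest. The estimate in heme against control was 0.36 ± 0.17 (SE) (limma, adjusted p = 0.998), and in NIM against control it was 0.15 ± 0.14 (adjusted p = 0.934). Without control replicate 2 the heme estimate was 0.32 and the NIM estimate 0.12.

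The p200 family, nuclear proteins that bind DNA and are induced by interferon, had 3 members on a stretch of chromosome 1. Ifi202b had 46.7 FPKM in heme cells, 43.8 and 46.2 FPKM in NIM cells, and 45.7 and 44.3 FPKM in control cells. The Ifi204 locus, which includes Mnda, had 45.3 FPKM in heme cells, 49.5 and 43.4 FPKM in NIM cells, and 49.3 and 42.3 FPKM in control cells. Both loci overlapped between NIM and control. The transcript listed as Mnda is named Ifi211 in GENCODE M21, which meets the rule, but it was not counted as a member. It had 11.5 FPKM in heme cells, 10.8 and 11.8 FPKM in NIM cells, and 10.2 and 0.161 FPKM in control cells. Ifi203 had 1.72 FPKM in heme cells and 1.24 and 2.39 FPKM in NIM cells, and was listed at 0 in both control libraries, so no fold is given. These genes are near copies of each other, and their values are uncertain where reads match more than 1 of them.

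Ifit2, an RNA-binding inhibitor of translation, had 8.42 FPKM in heme cells, 8.56 and 6.89 FPKM in NIM cells, and 9.88 and 7.50 FPKM in control cells. The heme value lay inside the control range, and NIM overlapped control. Isg20, an exonuclease that degrades viral RNA, ranged over 0.666 to 6.23 FPKM, the lowest value in NIM replicate 1 and the highest in heme. Its NIM estimate of -0.73 ± 0.70 (SE) became 0.23 when NIM replicate 1 was left out.

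At 9 loci with at least 2 transcripts that reached 5 FPKM in a library, the leading transcript was not the same in every library. Trim23, where only 1 transcript reached that level, also changed its leading transcript, in control replicate 2. H2-K1 transcript ENSMUST00000025181, a coding form, had 15.0 FPKM in heme cells, 36.5 and 48.7 FPKM in NIM cells, and 16.0 and 16.0 FPKM in control cells. Both NIM libraries were the high ones, and the unnamed transcript MSTRG.8400.5 of the same locus ran the other way, with 34.2 FPKM in heme cells, 27.7 and 0 FPKM in NIM cells, and 40.6 and 37.0 FPKM in control cells. Tested over 13737 single transcripts in limma, ENSMUST00000025181 had a log2 fold change of 1.35 ± 0.19 (SE) in NIM against control (adjusted p = 0.377), and it did not pass. In heme against NIM it was -1.44 ± 0.23 (limma, adjusted p = 0.350). These forms span nearly the same interval, and the assembler's division of reads between them was not tested.

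**Figure D3:**
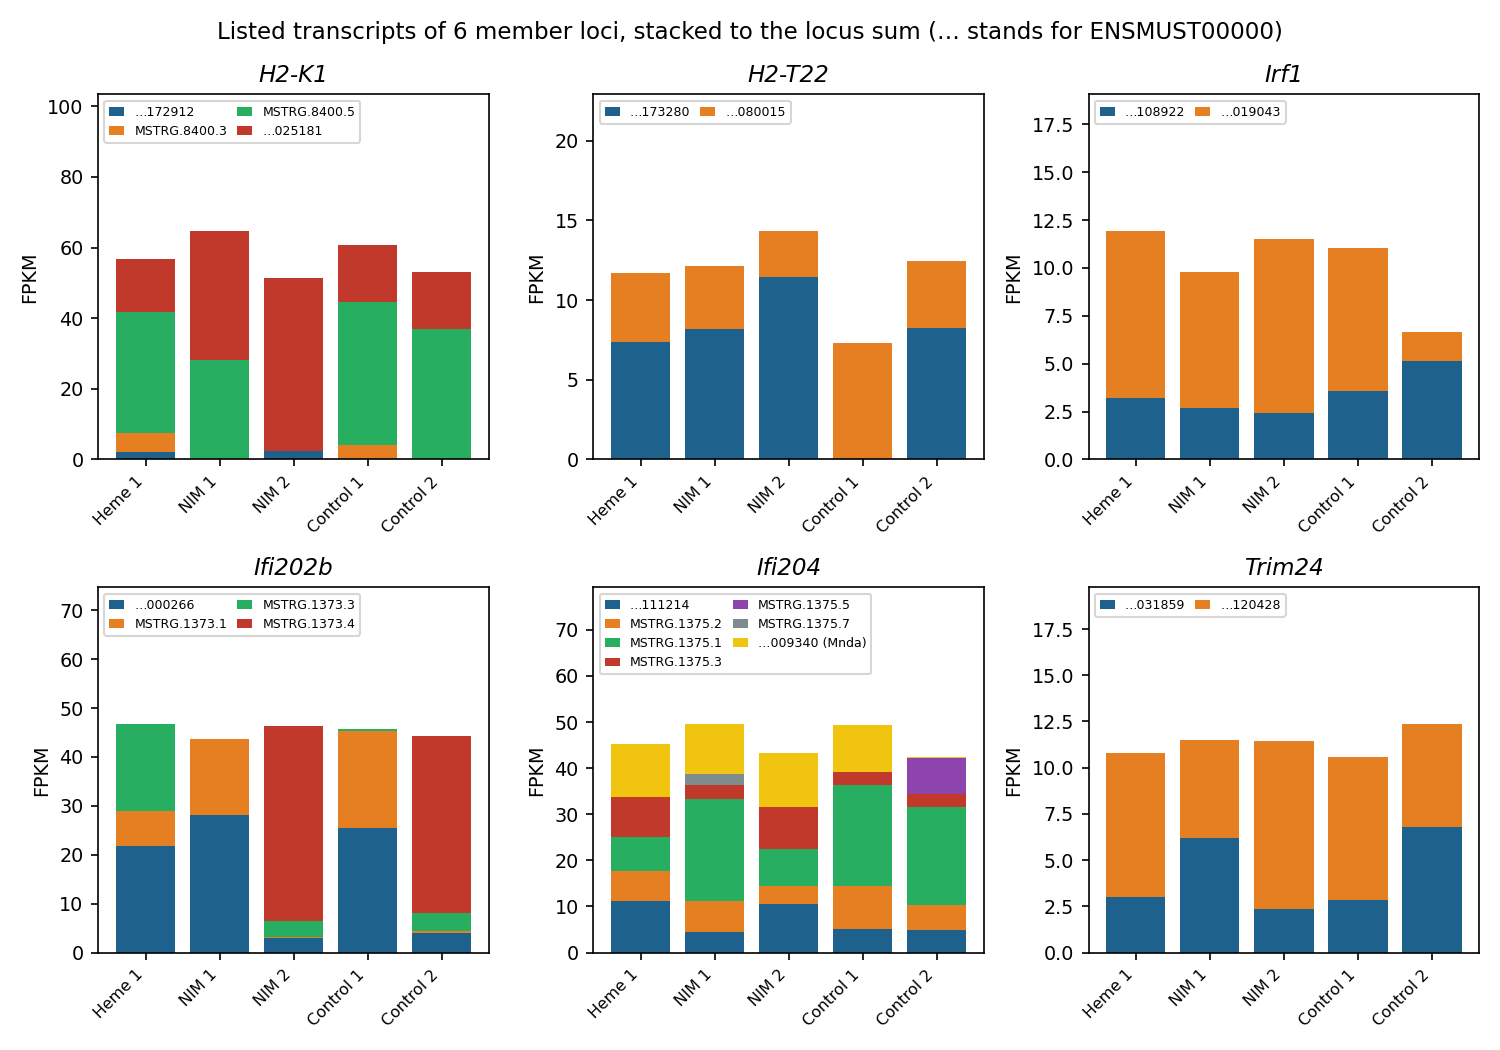
FPKM of each listed transcript at 6 member loci, stacked to the locus sum, in the 5 libraries. At H2-K1 the red part, ENSMUST00000025181, is 36.5 and 48.7 FPKM in NIM and 15.0 to 16.0 FPKM elsewhere. At Ifi202b the red part, MSTRG.1373.4, appears in NIM replicate 2 and control replicate 2 only.

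The transcripts of Ifi202b differed in which libraries were high. MSTRG.1373.4 had 0 FPKM in heme cells, 0 and 39.7 FPKM in NIM cells, and 0 and 36.1 FPKM in control cells, while the named coding transcript had 21.8 FPKM in heme cells, 28.1 and 3.01 FPKM in NIM cells, and 25.5 and 4.02 FPKM in control cells. The unnamed MSTRG.1373.3 had 17.7 FPKM in heme cells, 0 and 3.32 FPKM in NIM cells, and 0.318 and 3.66 FPKM in control cells. The first of these was high in the second NIM and control libraries, the named one was low in both, and the last was highest in heme. H2-T22 transcript ENSMUST00000173280, annotated for nonsense-mediated decay, had 7.37 FPKM in heme cells, 8.21 and 11.4 FPKM in NIM cells, and 0 and 8.27 FPKM in control cells. With the p-values of the authors' deposited tables adjusted here by Benjamini-Hochberg, it is the only one of 36 member transcripts (2.78%) below 0.05, at 0.0252 for heme and 0.0156 for neural induction. Over all 15113 transcripts of the authors' deposited tables, 7.24% were below 0.05 for heme and 7.2% for neural induction. After removal of a median offset of -0.02 in each, the log2 fold changes in the authors' deposited tables were within 0.1 of the ratio of heme or NIM replicate 1 to control replicate 1 in 100% of transcripts above 5 FPKM. They follow those single libraries and not control replicate 2, where this transcript was present at the level of the treated libraries.

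At Trim24, Isg20l2 and Ifi204 the exchange overlapped between NIM and control. Trim24 transcript ENSMUST00000031859 had 2.98 FPKM in heme cells, 6.21 and 2.38 FPKM in NIM cells, and 2.82 and 6.81 FPKM in control cells. Isg20l2 transcript ENSMUST00000055984 had 7.52 FPKM in control replicate 2, against 14.7 to 16.8 FPKM in the other libraries. At the Ifi204 locus the transcript named Ifi204 had 11.2 FPKM in heme cells, 4.50 and 10.6 FPKM in NIM cells, and 5.09 and 4.84 FPKM in control cells. Irf1 is described above.

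At Trim2 and the H2-Ke6 locus both NIM libraries stood on one side for some transcripts. Trim2 transcript ENSMUST00000054990 had 5.89 FPKM in heme cells, 0.00437 and 0.00480 FPKM in NIM cells, and 1.57 and 6.89 FPKM in control cells. Its log2 fold change in NIM against control was -2.16 ± 0.77 (SE; limma, adjusted p = 0.938). At the H2-Ke6 locus, Slc39a7 transcript ENSMUST00000167145 had 5.70 FPKM in heme cells, 1.22 and 1.49 FPKM in NIM cells, and 10.1 and 4.70 FPKM in control cells, and the unnamed MSTRG.8415.13 had 26.8 FPKM in heme cells, 41.5 and 35.4 FPKM in NIM cells, and 32.5 and 23.9 FPKM in control cells. NIM was thus low for the Trim2 and Slc39a7 transcripts and high for the unnamed one, without overlap with control, and none of these passed the test. Of 53 tested transcripts at member loci, limma called 0 in each comparison. At an unadjusted p below 0.05 there were 0 in heme against control, 5 (9.43%, against 4.98% of all transcripts) in NIM against control and 3 (5.66%, against 4.96%) in heme against NIM.

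The loci that match by name include TRIM proteins, a family of ubiquitin ligases. Trim2, an E3 ligase with a role in axons, had 11.6 FPKM in heme cells, 5.16 and 7.43 FPKM in NIM cells, and 6.04 and 8.53 FPKM in control cells. Heme was the highest library, and NIM and control overlapped. Trim28, the corepressor of KRAB zinc finger proteins, had 10.1 FPKM in heme cells, 11.0 and 8.80 FPKM in NIM cells, and 11.6 and 15.7 FPKM in control cells, and both listed transcripts are annotated as retained introns. It was the only member whose heme value lay below both controls, with estimates of -0.38 ± 0.26 (SE) for heme and -0.42 ± 0.21 for NIM. Without control replicate 2 they were -0.18 and -0.22.

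Trim24, a cofactor of nuclear receptors, had 10.8 FPKM in heme cells, 11.5 and 11.5 FPKM in NIM cells, and 10.6 and 12.3 FPKM in control cells. Trim23, a ligase with a GTPase domain, had 7.11 FPKM in heme cells, 8.09 and 7.50 FPKM in NIM cells, and 8.47 and 6.49 FPKM in control cells. In both genes the heme value lay inside the control range. Irf2bpl, a regulator expressed in neurons, had 25.3 FPKM in heme cells, 25.3 and 27.3 FPKM in NIM cells, and 25.6 and 21.05 FPKM in control cells. Isg20l2, a nuclease of ribosomal RNA maturation, had 17.9 FPKM in heme cells, 18.4 and 18.2 FPKM in NIM cells, and 19.0 and 17.0 FPKM in control cells. In each of these 4 genes NIM and control overlapped.

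H2-Ke6 is a steroid dehydrogenase gene inside the MHC region and shares its locus with the zinc transporter gene Slc39a7. The sum was 67.6 FPKM in heme cells, 62.3 and 61.3 FPKM in NIM cells, and 68.4 and 66.5 FPKM in control cells, of which a mean of 2.39% was on the transcript named H2-Ke6. That transcript had 0.816 FPKM in heme cells, 3.44 and 1.44 FPKM in NIM cells, and 1.11 and 0.982 FPKM in control cells. The locus sum was lower in both NIM libraries (-0.12 ± 0.07, SE) while the named transcript was higher in both (0.69), and neither passed the test.

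Set against all loci, heme lay above both control libraries at 10 members (35.7%), against 25.5% of all loci, and below both at 1 (3.57%), against 31.1%. NIM libraries both lay above control at 3 members (10.7%), against 18.2%, and below at 3 (10.7%), against 13%. With 1 heme library, any value outside the control pair counts. Tap2 and Ifi203 are among the 10, and Ifi203 is among the 3 above control in NIM. Both controls list these loci at 0, so they met the filter only through heme and NIM libraries and do not bear on these shares. Positive estimates made up 19 of 28 members (67.9%) in heme against control, against 49.2% of all loci, with a median of 0.05 against -0.0035 for all loci. In NIM against control there were again 19, against 54.7% of all loci, and both comparisons share the same control libraries. Leaving out Tap2 and Ifi203, which both controls list at 0, gave 17 positive and 9 negative estimates in each comparison, with medians of 0.04 for heme and 0.02 for NIM.

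These shares moved with control replicate 2. Without it, 14 of 28 members were positive in heme against control and 11 of 28 in NIM against control, with medians of -0.0019 and -0.044. Leaving out Tap2 and Ifi203 as well gave 12 of 26 and 9 of 26, with medians of -0.02 and -0.05. Without control replicate 1 instead, 23 of 28 were positive for heme and 19 of 28 for NIM, with medians of 0.11 and 0.096. Control replicate 2 had the lowest value at 14 of 28 members (50%), against 33.3% of all loci, and the highest at 4 (14.3%), against 28.2%. Ties counted for each library. Among the 14 are Tap2 and Ifi203, where control replicate 2 tied at 0 with control replicate 1. Its median distance from the median of the other 4 libraries was -0.14 on the log2 scale at members and -0.01 over all loci. In the same library Mt1, a metallothionein, had 186 FPKM, against 43.9 to 54.5 FPKM in the other 4, beside the Hmox1 and Mki67 values given above. The part of that library's state in the member values was not tested.

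**Figure D4:**
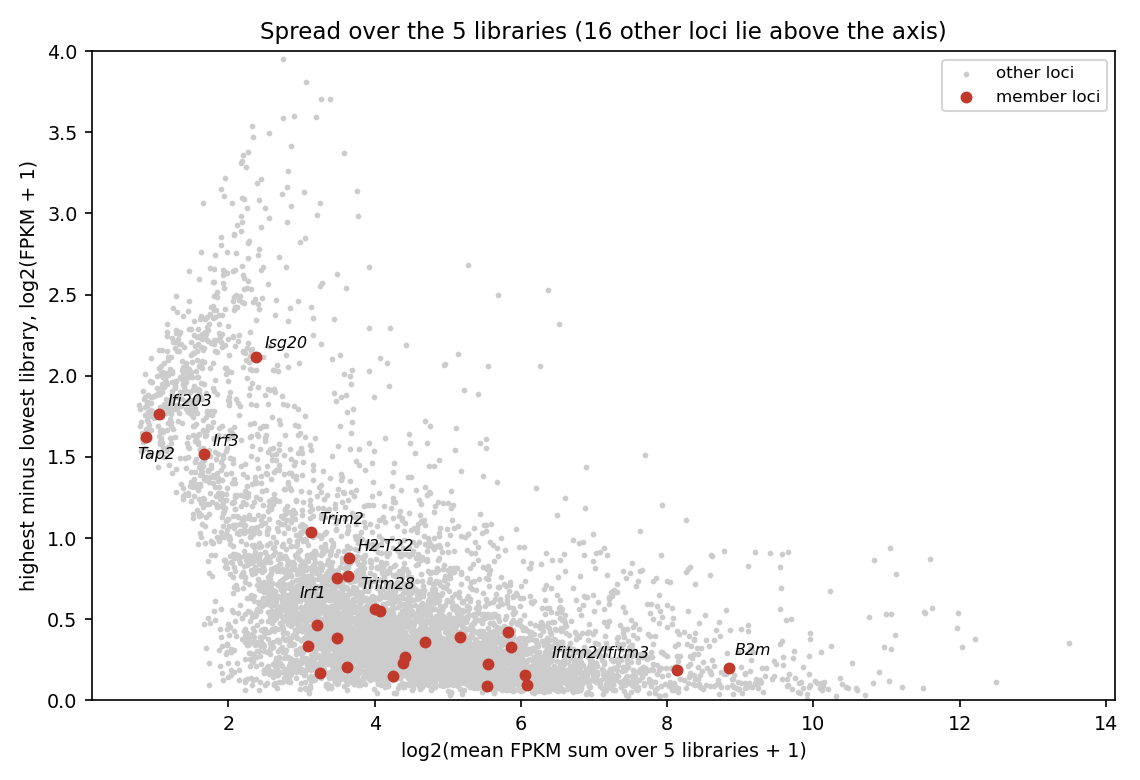
Spread of each locus over the 5 libraries, highest minus lowest value on the log2(FPKM + 1) scale, against its mean level. Red points are the member loci and grey points the other loci. The members follow the grey cloud, with a median spread of 0.37 against 0.39, and Isg20 has the widest spread of the members at 2.12.

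Member loci spread over the 5 libraries about as much as other loci did. The median difference between highest and lowest library was 0.37 at members and 0.39 over all loci on the log2 scale. NIM replicates differed from each other by a median of 0.11 at members and 0.10 over all loci, and control replicates by 0.21 at both. Heme differed from control replicate 1 by a median of 0.10 at members and 0.09 over all loci. In both sets this was less than the control replicates differed from each other.

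Heme was also compared with NIM directly. Heme lay above both NIM libraries at 11 members (39.3%), against 27.3% of all loci, and below both at 8 (28.6%), against 40.3%. Tap2 is among the 11, with 2.09 FPKM in heme cells against 2.07 and 0 FPKM in NIM cells. It met the filter only through heme and NIM replicate 1, so it does not bear on these shares. The largest estimates among members of at least 5 FPKM were those of Trim2, at 0.81 ± 0.33 (SE; limma, adjusted p = 1), and Ifngr1, at 0.25 ± 0.14 (adjusted p = 1). The Trim2 transcripts differed among themselves, with -0.19 ± 0.96 for ENSMUST00000107691, 2.78 ± 0.94 for ENSMUST00000054990 and 1.85 ± 0.84 for the unnamed MSTRG.12512.8, and the sum of the transcripts named Trim2 had 1.10. The transcript named Ifngr1 alone had 0.03 ± 0.15, and the unnamed one of that locus had 1.94 ± 0.62. B2m had 0.14 ± 0.10 and Bst2 0.21 ± 0.17. Counting both heme columns as separate samples called 2 members, Trim2 (1.05 ± 0.32, adjusted p = 0.0337) and Isg20 (1.31 ± 0.40, adjusted p = 0.0370) in limma, against 2.97% of all 7063 loci in that fit, which moved the median of all loci to 0.20. In the fit of 5 libraries Isg20 had 1.15 ± 0.85, and 0.19 without NIM replicate 1.

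Of 62 other interferon pathway and antigen processing genes, 25 were listed and 0 passed the test in limma in any comparison. In heme against control 11 had positive and 14 negative estimates with a median of -0.02, where 49.2% of all loci were positive. In NIM against control 18 were positive and 7 negative with a median of 0.06, where 54.7% of all loci were positive. The summed level of these loci was lowest in control replicate 2, at 1766 FPKM against 1933 to 1991 FPKM in the other libraries. Its largest terms were Calr, at 628 FPKM there against 698 to 744 FPKM, and Pdia3, at 352 FPKM against 388 to 399 FPKM. Tbk1, Samhd1, Shisa5 and Ptpn11 were instead highest in control replicate 2, so the sum does not describe each locus. Jak1, the kinase bound to interferon receptors, had 57.3 FPKM in heme cells, 56.7 and 59.0 FPKM in NIM cells, and 58.2 and 52.5 FPKM in control cells. Psme1, a subunit of the proteasome activator PA28, had 23.2 FPKM in heme cells, 22.4 and 18.3 FPKM in NIM cells, and 18.9 and 14.0 FPKM in control cells. Heme lay above both controls for Psme1, with 0.49 ± 0.24 (SE). Its partner Psme2 had 32.9 FPKM in heme cells, 36.5 and 40.5 FPKM in NIM cells, and 39.3 and 35.8 FPKM in control cells, so that heme lay below both controls there, with -0.19 ± 0.13.

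Psmb10, a catalytic subunit of the immunoproteasome, had 10.3 FPKM in heme cells, 12.2 and 13.2 FPKM in NIM cells, and 13.2 and 9.60 FPKM in control cells. The locus of Tapbp, which loads peptides onto class I and here shares its sum with Zbtb22, had 73.4 FPKM in heme cells, 73.9 and 76.1 FPKM in NIM cells, and 74.6 and 61.0 FPKM in control cells. For both, the heme value lay inside the control range. Samhd1, an antiviral nucleotide hydrolase, had 16.6 FPKM in heme cells, 16.4 and 16.2 FPKM in NIM cells, and 18.2 and 19.3 FPKM in control cells, the controls being the high libraries. Adar, an RNA-editing enzyme, had 3.49 FPKM in heme cells, 4.84 and 5.77 FPKM in NIM cells, and 3.70 and 3.91 FPKM in control cells, with both NIM libraries high. Il6st, the shared receptor chain of interleukin-6 cytokines, had 24.0 FPKM in heme cells, 29.8 and 30.4 FPKM in NIM cells, and 31.7 and 26.1 FPKM in control cells, with heme lowest. Irgm1, an interferon-induced GTPase, had 26.7 FPKM in heme cells, 25.1 and 27.1 FPKM in NIM cells, and 25.6 and 19.3 FPKM in control cells, control replicate 2 being the low one.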

How the data were processed

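RNA-seq of C17.2 cultures was analysed from the deposited transcript table. HISAT2, StringTie and edgeR are named without versions, with the GRCm38 (mm10) build, per the submitters' processing notes. The authors deposited FPKM and mean coverage per transcript in 6 columns each. They also deposited 2 comparison tables with a p-value, a likelihood ratio score, a log2 fold change and a log2 abundance. No value column was unmapped. Member transcripts were looked up in GENCODE M21: all 36 identifiers were found, 29 with the same coordinates.

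FPKM are not counts, so no count model or counting interval was used. Locus sums were tested on log2(FPKM + 1) with limma 3.58.1 in R 4.3.3 (intensity trend, two-sided, Benjamini-Hochberg, 0.05), over loci with at least 1 FPKM in 2 of 5 libraries, which all 28 member loci passed. The scale understates changes of low loci. The fit has 2 residual degrees of freedom, from NIM and control, whose spread stands in for that of the single heme library. The limma test adds 2.48 prior degrees of freedom to these. The same limma steps were run on simulated data with changes of known size in NIM against control only. The heme comparisons were not simulated. Tables were made with Python 3.11.15. Every member is named, those with a mean of at least 5 FPKM by library. Transcripts are named where the leading one changes. Other pathway genes are named by smallest p. Promoter motifs were matched in RefSeq windows; longer forms of 2 of them were searched first and are not reported. Members and lists were chosen with earlier results of these data known.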

Additional observations from a re-analysis of the deposited data

How the results depend on the processing

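No member locus was called under the alternatives, except with all 6 columns in heme against NIM (2). Of 1089 alternative estimates for 84 pairs of member and comparison, 9 reversed an estimate that exceeded its standard error and 122 changed the sign of a smaller one. In NIM against control, Ifngr1 became 0.058 and H2-Ke6 0.69 with single transcripts and with sums over 1 gene name, Irf1 ranged over -0.052 (without control replicate 2) to 0.60 and Isg20 over -1.69 to 0.23 (without NIM replicate 1) as single libraries were left out. In heme against NIM, Trim2 became -0.19 with its most abundant single transcript (2.78 for another, 1.10 for the gene-name sum) and H2-Ke6 -0.86 with single transcripts and with gene-name sums. Single transcripts and gene-name sums hold fewer transcripts than a locus.

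Over all loci the calls, in heme against control, NIM against control and heme against NIM, were 3, 1 and 4. They were 10, 1 and 11 with single transcripts, 1, 0 and 1 with sums over 1 gene name, and 207, 51 and 210 with all 6 columns, where 146 calls were higher and 61 lower in heme against control, 25 and 26 in NIM against control and 148 and 62 in heme against NIM. That fit moved the median of all loci to 0.21 in heme against control, and the mean of both heme columns to 0.23. In NIM against control the limma count was 0 with a pseudocount of 0.1 (215 at an unadjusted p below 0.05), 0 without the filter on low values (232) and 27 without the intensity trend. With the replicate number as a block it was 4, 2 and 6. The replicate numbers do not pair the samples by label, and the replicate differences of control and NIM correlated at -0.05 over loci. Leaving out any 1 control or NIM library gave 0 calls in limma in every comparison, with 192 to 1268 loci at an unadjusted p below 0.05. The cause of these shifts was not tested. FPKM carry no counts, so depth sets no interval here, and members under 5 FPKM had the widest errors.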
